A study of Mus musculus with 18 samples.

Results

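The genes described here make, break down and sense prostaglandins: Ptgs1, Ptgs2, Ptges, Ptgis, Ptgds, Hpgd, Ptger2, Ptger3, Ptger4 and Ptgfr. They were chosen by name, as the array probes whose transcript accession maps to these 10 symbols, out of 22911 symbols on the array. All 10 were found, through 15 probes, and all 10 passed the filter on dim signals. The question the groups pose for them is whether their RNA differed between mice described as overexpressing oestrogen receptor beta and their controls, and between endometriotic lesions and the uterus or the endometrium in place.

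Prostaglandins are lipid signals made from arachidonic acid. A cyclooxygenase makes the common precursor, a terminal synthase turns it into a given prostaglandin, and the product acts on receptors of the cell surface before a dehydrogenase inactivates it. In the uterus they are known for their part in cycle-dependent bleeding, implantation and labour, and in endometriosis prostaglandin E2 is known as a mediator of pain and inflammation.

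RNA came from 6 groups of female mice with 3 arrays each. PRCre mice carry Cre in the progesterone receptor gene, which is active in cells that express that receptor, and served as controls. ERBOE mice were described as overexpressing oestrogen receptor beta. Uterus was taken at 12 weeks of age from PRCre and ERBOE mice without surgery. Eutopic endometrium, the endometrium in its normal place, came from PRCre and ERBOE hosts that had received a wild-type fragment at 8 weeks. Ectopic lesions grew from fragments of PRCre or ERBOE uteri, taken at 8 weeks with a 2 mm punch and placed into wild-type C57BL/6J hosts of 8 weeks, so cells that entered a lesion from its host were wild type. Both were collected 4 weeks after surgery, and every sample was taken at estrus. The wild-type lesion hosts were described as intact. Each array held RNA pooled from 3 animals, 9 animals per group. A pool hides the spread between its animals. The source label of the ERBOE lesion and eutopic samples names mice without endometriosis, which goes against their titles, and the titles were followed. The account of the eutopic samples also speaks of harvested lesions before it speaks of pooled eutopic endometria. PRCre and ERBOE samples of the same tissue came from different animals, as did lesions and eutopic endometria.

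The 75th percentile of spot signal, used here as the brightness of an array, was 237.3 on PRCre uterus replicate 1 and 451.4 to 740.0 on the other 17 arrays, and no array held a saturated spot (0 of all). Pairs of arrays had correlations between 0.915 and 0.976. The arrays lay on 3 slides. Slide 1 held no eutopic array and slide 3 no PRCre lesion array, so comparisons with these groups partly mix tissue or genotype with slide. The main fit had no term for the slide. Esr2, the gene of oestrogen receptor beta, was read by its bright probe at group means of 2.20 to 2.70, and the ERBOE minus PRCre difference averaged over tissues was -0.16 ± 0.11 (SE, limma adjusted p = 0.709). Its second probe was well above background on 1 array. The labels do not say whether either probe lies in the overexpressed RNA, so this reading does not check the genotype labels. The uterine genes Hoxa10, Hoxa11, Esr1, Pgr, Hand2 and Msx1 were all well above background on 18 of 18 arrays. A summed level is the log2 of the sum of a marker list's scaled signals before logs, so the brightest marker weighs most. The adipocyte list stood apart: its summed level ranged from -1.16 to -0.13 in the uterus groups and from -1.36 to 3.18 in eutopic endometrium, against 4.61 to 7.35 in PRCre lesions and 7.34 to 7.69 in ERBOE lesions. Of its 6 markers (Adipoq, Plin1, Cidec, Lipe, Fabp4, Lep), 5 rose in lesions against uterus averaged over genotypes, and Plin1 was on no uterus array well above background. In the same comparison 2 of 4 neutrophil markers (S100a8, S100a9) rose, while the other 2 (Mpo, Csf3r) read lower without passing. Of 6 macrophage markers 1 rose, and 1 of 4 gland markers fell, where 2.08% of all features passed. The part of these shifts in any lesion difference below was not tested. In bulk RNA, fewer cells of a type and less RNA per cell cannot be told apart.

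**Figure D1:**
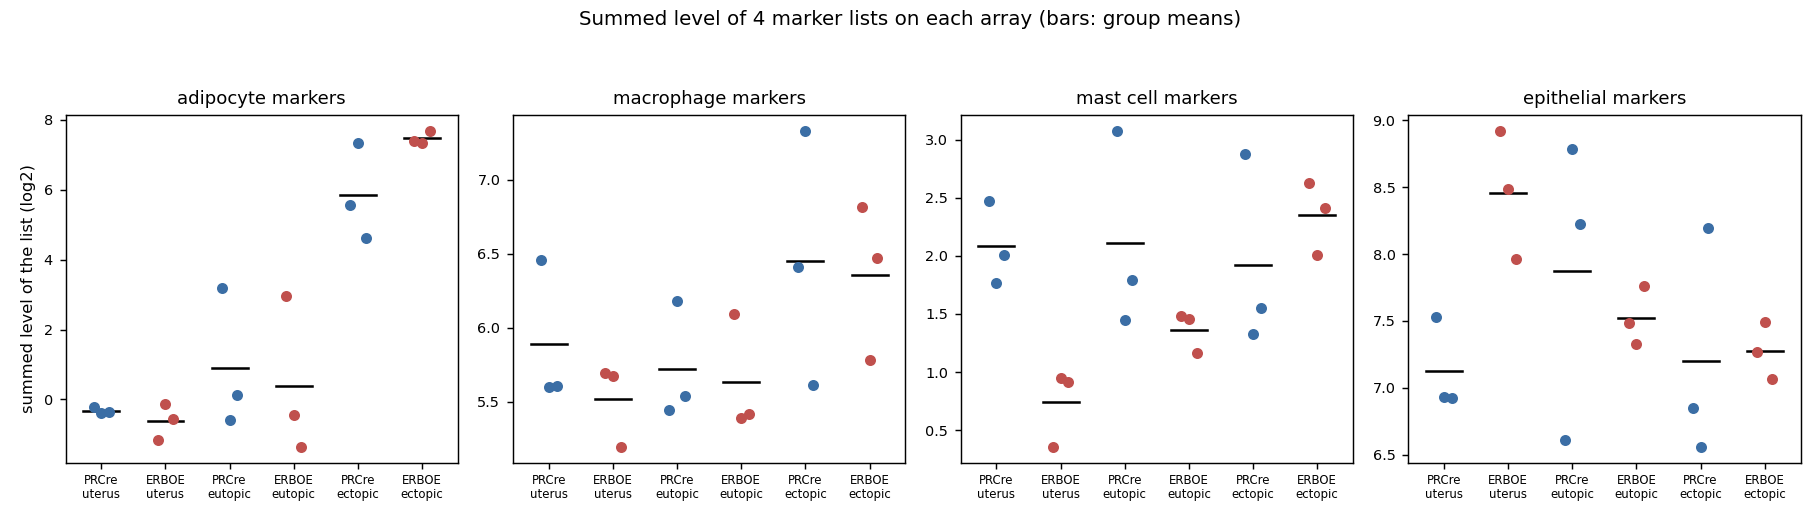
Summed log2 level (vertical axes) of the adipocyte, macrophage, mast cell and epithelial marker lists on each of the 18 arrays, by group (horizontal axes), with PRCre in blue, ERBOE in red and bars at group means. Adipocyte marker levels of the 6 lesion arrays sit between 4.61 and 7.69, above all other arrays, whose highest value is 3.18.

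Promoters are shown for 4 genes on which the results below turn: the inducible cyclooxygenase, the prostaglandin E synthase, the prostaglandin inactivating enzyme and the EP2 receptor. The windows run from 250 bases before to 50 bases after the annotated start (RefSeq, assembly GRCm38.p6), in the direction of the gene, and capitals mark motif matches. Of the 10 genes, 9 have a window, and Ptgis has none in the table used.
Ptgs2, chr1:150099781-150100080, plus strand: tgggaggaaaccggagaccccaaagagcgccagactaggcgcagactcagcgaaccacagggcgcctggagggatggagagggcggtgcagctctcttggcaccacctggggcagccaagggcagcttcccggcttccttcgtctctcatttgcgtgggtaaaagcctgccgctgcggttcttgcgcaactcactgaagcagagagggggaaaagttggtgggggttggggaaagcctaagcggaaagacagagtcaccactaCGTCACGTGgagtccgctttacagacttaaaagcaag
Ptges, chr2:30903248-30903547, minus strand: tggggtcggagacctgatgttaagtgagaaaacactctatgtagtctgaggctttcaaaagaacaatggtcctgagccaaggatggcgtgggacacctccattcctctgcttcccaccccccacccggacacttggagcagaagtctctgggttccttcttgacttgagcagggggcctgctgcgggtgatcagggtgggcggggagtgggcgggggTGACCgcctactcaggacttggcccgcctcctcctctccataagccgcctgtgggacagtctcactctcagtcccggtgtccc
Hpgd, chr8:56294302-56294601, plus strand: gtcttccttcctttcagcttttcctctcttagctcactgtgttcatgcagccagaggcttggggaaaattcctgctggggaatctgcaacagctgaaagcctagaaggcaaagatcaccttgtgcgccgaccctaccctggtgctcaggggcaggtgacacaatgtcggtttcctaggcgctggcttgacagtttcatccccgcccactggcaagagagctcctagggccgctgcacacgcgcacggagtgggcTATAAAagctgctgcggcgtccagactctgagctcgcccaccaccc
Ptger2, chr14:44987861-44988160, plus strand: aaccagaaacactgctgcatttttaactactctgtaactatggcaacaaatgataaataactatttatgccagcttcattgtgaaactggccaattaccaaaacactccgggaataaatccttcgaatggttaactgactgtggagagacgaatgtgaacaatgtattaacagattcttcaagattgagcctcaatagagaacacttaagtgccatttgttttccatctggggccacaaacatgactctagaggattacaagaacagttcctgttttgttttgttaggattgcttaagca

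Motifs were searched on both strands of all 32851 promoter windows of the same length, except TATAAA, which was searched on the strand of the gene only. The box of the TATA-binding protein, searched as TATAAA, was in 8.32% of windows. The cyclic AMP response element half-site, searched as TGACG, was in 20.81%. The E-box, searched as CACGTG, was in 7.15%. The AP-1 site, searched as TGANTCA, was in 7.81%. The oestrogen response element half-site, searched as GGTCA, was in 40.48%. The palindromic oestrogen response element, that half-site followed by 3 free bases and its reverse complement, was in 0.07%, and each such match contains the half-site. The NF-kB site was in 4.51%. Ptgs2 held a cyclic AMP response element half-site on the minus strand that began at position 14, with the first transcribed base as 1, and an overlapping E-box at position 17. Ptges held an oestrogen response element half-site on the minus strand at position -33, and Hpgd held TATAAA at position 5. Ptgs1 held GGTCA at position -12. Ptgfr held the same half-site at positions -170 and 4. Ptgds held an AP-1 site at position -35 and an NF-kB match at position -22. None of these letters were in the windows of Ptger2, Ptger3 or Ptger4, and no window of the 9 genes held the palindrome. A match describes the letters of the window and is no evidence of binding.

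In the paragraphs that follow, a level is log2 spot signal minus the 75th percentile of its array, and a difference is in log2 units. A limma linear model of the 6 groups was fitted to 33455 features, and a gene passed at a Benjamini-Hochberg adjusted p under 0.05. No gene of the 10 passed in any of the 16 comparisons. An unadjusted p under 0.05 in at least 1 comparison was seen for 4 of them (Ptgs2, Hpgd, Ptger2, Ptgfr). The share of all features with such a p in at least 1 of the 16 was not counted. In a single comparison it was 1.72% to 16.2%. Few features of any kind passed between genotypes: 0% in uterus, 0% in eutopic endometrium, 0% in lesions and 0.012% averaged over tissues. Between lesions and eutopic endometrium 0.00299% passed in PRCre, 0.616% in ERBOE and 1.27% averaged over genotypes. Between lesions and uterus 0.00897% passed in PRCre, 1.23% in ERBOE and 2.08% averaged over genotypes. Between eutopic endometrium and uterus 0% passed in PRCre, in ERBOE and averaged, and 0% passed in the 3 tests of whether a tissue difference depended on genotype. A count of 0 among 10 genes is close to these shares. The intervals below show how large a difference each gene could still hide.

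**Figure D2:**
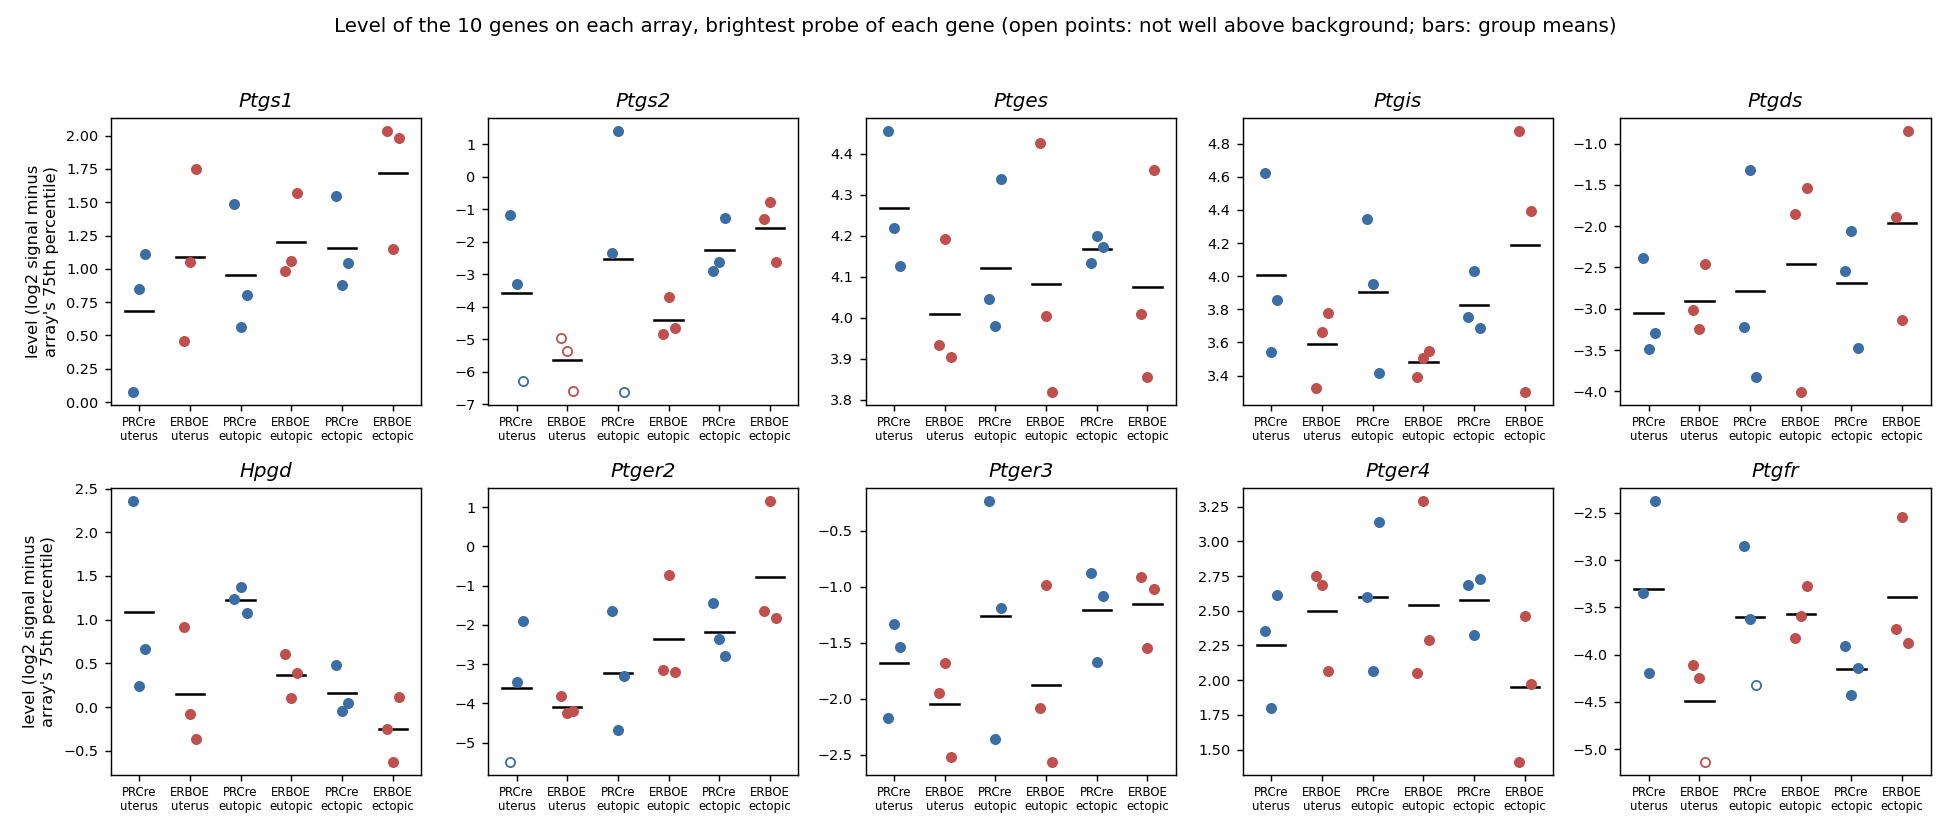
Level of each of the 10 genes (vertical axes, log2 signal minus the array's 75th percentile) on every array, by group (horizontal axes), from the brightest probe, with PRCre in blue, ERBOE in red, open points not well above background and bars at group means. Ptgs2 spans 8.01 log2 units over the 18 arrays and Ptges 0.64, on axes scaled to each gene.

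Ptgs2, the inducible cyclooxygenase (COX-2), had the widest range of the 10, with levels from -6.61 to 1.41. On the PRCre uterus arrays it read -1.17, -3.29 and -6.30, and on the ERBOE uterus arrays -4.97, -5.35 and -6.58. On the PRCre eutopic arrays it read -2.34, 1.41 and -6.61, and on the ERBOE eutopic arrays -4.84, -3.71 and -4.66. On the PRCre lesion arrays it read -2.89, -2.63 and -1.25, and on the ERBOE lesion arrays -1.31, -0.77 and -2.61. The 6 lesion arrays lay close together, whereas the PRCre uterus and eutopic arrays were scattered over most of the range. Within ERBOE, every lesion array was above every uterus and every eutopic array. Of all features, 20.1% and 20.2% did not overlap in these comparisons.

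No ERBOE uterus array had Ptgs2 well above background, so the ratio of group means was bounded with those arrays raised to the background limit. By this bound ERBOE lesions averaged 9.12-fold above ERBOE uterus, with bounds of 6.93-fold to 13.1-fold when 1 array was left out. The measured difference was 4.07 ± 1.54 (SE, 95% interval 0.78 to 7.36, limma adjusted p = 0.276). In ERBOE the lesion minus eutopic difference was 2.84 ± 1.54 (95% interval -0.45 to 6.12, adjusted p = 0.56). These values depend on how the dimmest signals are treated: with normexp background correction, which adds an offset of 50, they were 1.85 and 1.80. The 9.12-fold bound leaves out the spread between arrays, and both the interval start of 0.78 and the normexp value of 1.85 lie below it. Within slides the ERBOE lesion minus uterus difference was 5.81, 2.74 and 3.66 on slides 1, 2 and 3, from 1 array per group on each.

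Averaged over genotypes, Ptgs2 read 2.70 ± 1.09 higher in lesions than in uterus (95% interval 0.37 to 5.02, adjusted p = 0.225), or 1.01 with normexp. Without PRCre uterus replicate 1 it was 3.30. Eutopic endometrium read 1.15 ± 1.09 above uterus (adjusted p = 0.984). That value turned on single arrays, at 0.17 without PRCre eutopic replicate 2 and 2.18 without PRCre eutopic replicate 3. The lesion minus eutopic difference was 2.58 ± 2.17 larger in ERBOE than in PRCre (adjusted p = 1), with 0.63 without PRCre eutopic replicate 2 and 4.63 without PRCre eutopic replicate 3. In the uterus the genotypes overlapped for Ptgs2, and the ERBOE minus PRCre difference was -2.05 ± 1.54 (95% interval -5.34 to 1.24, adjusted p = 0.681). Without PRCre uterus replicate 1 no bound on that fold could be given.

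Ptgs1, the constitutive cyclooxygenase (COX-1), varied far less, with levels from 0.08 to 2.03 and a median SD within groups of 0.49. Its group mean was highest in ERBOE lesions, at 1.72 ± 0.50 (SD, n = 3), and lowest in PRCre uterus, at 0.68 ± 0.54. The ERBOE lesion arrays read 2.03, 1.15 and 1.98, and the PRCre lesion arrays 1.55, 0.88 and 1.04. The ranges of these groups overlapped. Averaged over tissues Ptgs1 read 0.41 ± 0.22 higher in ERBOE (95% interval -0.07 to 0.88, limma adjusted p = 0.619).

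Ptges encodes microsomal prostaglandin E synthase 1, which makes prostaglandin E2 and is known to work with COX-2. Its 3 probes did not give the same picture. The brightest, A_55_P1974193, barely moved: all 18 arrays lay between 3.82 and 4.45, the median SD within groups was 0.18, and group means spanned 0.26. The other probes, A_51_P312327 and A_55_P1974189, correlated with each other at r = 0.94 over the 18 arrays and with the brightest at -0.21 and -0.11. All 18 arrays were well above background for each of the 3.

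On A_51_P312327 the ERBOE lesions read 0.20, -0.03 and 0.07, and the PRCre lesions -1.13, -0.64 and -1.10. ERBOE eutopic endometrium read -1.01, -0.51 and -0.61 and PRCre eutopic endometrium -1.65, -1.83 and -1.80. PRCre uterus read -1.44, -0.38 and -0.71 and ERBOE uterus -1.36, -0.92 and -0.43. All ERBOE lesion arrays were above all 15 other arrays and all PRCre eutopic arrays below them, and the uterus groups overlapped. The share of features with a group apart from all 15 others was not counted. Between genotypes 11.5% of features did not overlap in lesions and 9.22% in eutopic endometrium. Between ERBOE lesions and ERBOE eutopic endometrium 20.2% did not. On A_55_P1974189 the same groups were at the ends, with means of -0.82 ± 0.22 (SD, n = 3) in ERBOE lesions and -2.50 ± 0.19 in PRCre eutopic endometrium, although 1 PRCre lesion array, at -1.01, reached into the ERBOE lesion range.

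Tested as single probes among 41707, these Ptges readings did not pass either. A_51_P312327 read 0.68 ± 0.16 higher in ERBOE averaged over tissues (SE, limma adjusted p = 0.269, where 0.0048% of probes passed). It read 1.05 ± 0.28 higher in ERBOE eutopic endometrium (unadjusted p = 0.00231, adjusted p = 1) and 1.04 ± 0.28 higher in ERBOE lesions (adjusted p = 0.789). In uterus the genotypes differed by -0.06 ± 0.28. For lesions minus eutopic endometrium averaged over genotypes, where 1.2% of probes passed, the differences were 0.80 ± 0.20 (adjusted p = 0.0801) and, on A_55_P1974189, 0.83 ± 0.20 (adjusted p = 0.0714). Neither passed. Over 25 alternatives the first passed in 1, without PRCre uterus replicate 1 (adjusted p = 0.0348), and reached 0.225. The second passed in 3 and reached 0.188. Those 3 were normexp (0.0389) and the fits without PRCre uterus replicate 2 (0.0469) and without PRCre lesion replicate 3 (0.0445). Uterus arrays are not part of this comparison, so leaving out 1 of them kept the difference and changed the estimated spread. The brightest probe gave 0.02 ± 0.15 for the same comparison. The 3 differences were not tested against each other, and the transcripts each probe reads were not compared here.

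**Figure D3:**
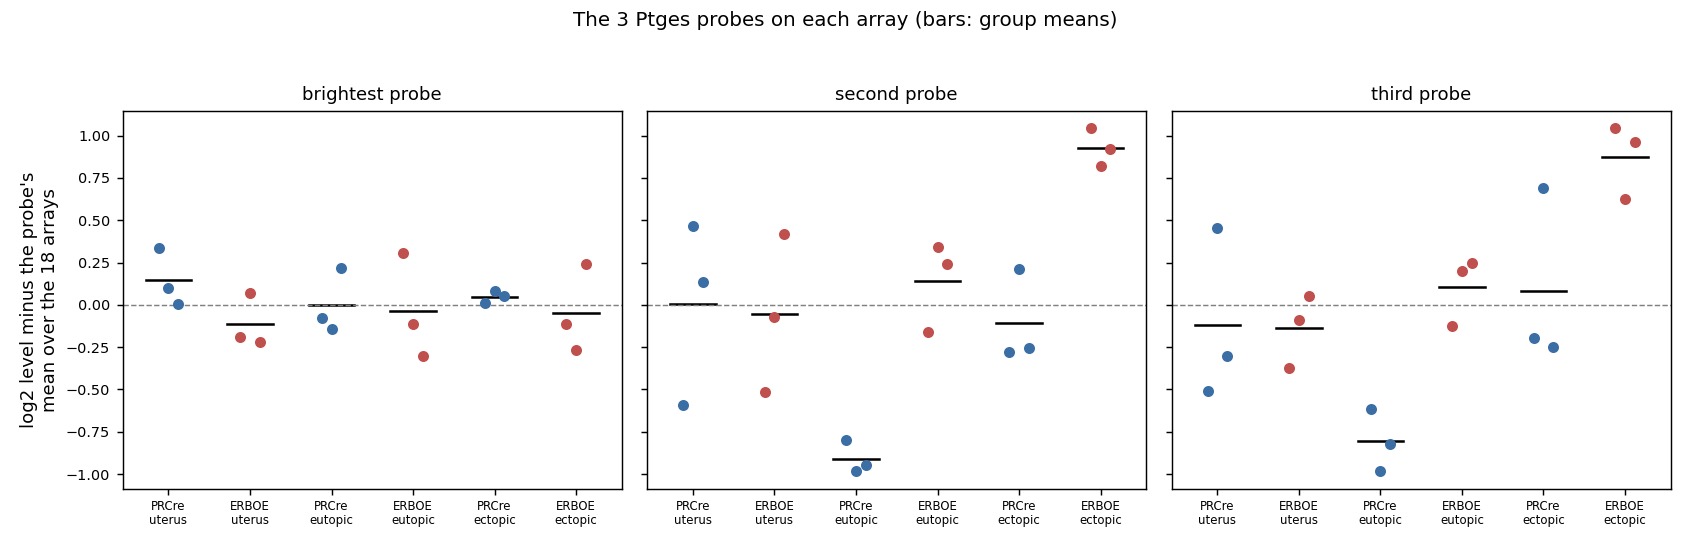
Level of the 3 Ptges probes on every array, each minus its own mean over the 18 arrays (vertical axis, log2), by group (horizontal axes): A_55_P1974193, the brightest, then A_51_P312327 and A_55_P1974189, with PRCre in blue, ERBOE in red and bars at group means. The brightest probe stays within 0.64 log2 units while the others span 2.02 and 2.03, with ERBOE lesions at the top and PRCre eutopic endometrium at the bottom.

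Ptgis, prostacyclin synthase, read between 3.30 and 4.88 over all arrays. ERBOE lesions read 4.88, 3.30 and 4.40 and ERBOE eutopic endometrium 3.39, 3.51 and 3.55, a difference of 0.71 ± 0.37 (SE, 95% interval -0.08 to 1.501, limma adjusted p = 0.538). The lesion arrays were spread widely and straddled the tight eutopic group. Without ERBOE lesion replicate 1 the difference was 0.37 and without replicate 2 it was 1.15. It was 0.79 ± 0.52 larger in ERBOE than in PRCre (adjusted p = 1), and 0.45 and 1.24 without those arrays. The second Ptgis probe correlated with the first at r = 0.83.

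Ptgds, a prostaglandin D synthase, spanned 3.15 over the arrays, with group means from -3.06 ± 0.59 (SD, n = 3) in PRCre uterus to -1.96 ± 1.14 in ERBOE lesions. SDs within the eutopic groups were 1.31 and 1.34, larger than the span of 1.096 between group means. It was among the 2 genes with the smallest p in no comparison.

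Hpgd, the dehydrogenase that inactivates prostaglandins, went the other way from most of the 10 in lesions. On the PRCre uterus arrays it read 2.35, 0.24 and 0.66, and on the ERBOE uterus arrays 0.91, -0.08 and -0.37. PRCre eutopic endometrium read 1.24, 1.38 and 1.07, and ERBOE eutopic endometrium 0.60, 0.10 and 0.38. PRCre lesions read 0.48, -0.05 and 0.04, and ERBOE lesions -0.26, -0.62 and 0.12. PRCre eutopic endometrium stood above both ERBOE eutopic endometrium and PRCre lesions with no overlap. Such separation is common on these arrays: 9.22% of features did not overlap between the eutopic genotypes, and 7% did not between PRCre lesions and eutopic endometrium.

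Averaged over genotypes Hpgd read 0.84 ± 0.32 lower in lesions than in eutopic endometrium, a difference of -0.84 (SE 0.32, 95% interval -1.53 to -0.16, unadjusted p = 0.0188, limma adjusted p = 0.27). In PRCre alone the difference was -1.07 ± 0.45 (adjusted p = 1). Hpgd was the 1 gene of the 10 with an unadjusted p under 0.05 in both, against 12.4% and 3.97% of all features. With the slide as a block the differences were -0.49 and -0.63, and slide 2, where both tissues of both genotypes were present, gave -0.67. PRCre lesions read 0.93 ± 0.45 below PRCre uterus (difference -0.93, adjusted p = 0.443), but -0.30 without PRCre uterus replicate 1.

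By genotype, Hpgd read lower in ERBOE in each tissue. The ERBOE minus PRCre difference was -0.93 ± 0.45 in uterus (SE, limma adjusted p = 0.519), -0.87 ± 0.45 in eutopic endometrium (adjusted p = 1) and -0.74 ± 0.26 averaged over tissues (95% interval -1.29 to -0.18, unadjusted p = 0.0131, adjusted p = 0.471). It was the 1 gene of the 10 with an unadjusted p under 0.05 in the average, against 8.95% of features. PRCre uterus replicate 1, the array of low brightness, carried the highest Hpgd level. Without it the differences were -0.30 in uterus and -0.53 on average. Within slide 2, which held all 6 groups, the average was -0.30.

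Ptger2 encodes EP2, a prostaglandin E2 receptor that raises cyclic AMP. Its probe was dim and variable, with a median SD within groups of 1.47. PRCre uterus read -5.48, -3.46 and -1.91, and ERBOE uterus -3.82, -4.26 and -4.20. PRCre eutopic endometrium read -1.66, -4.68 and -3.31, and ERBOE eutopic endometrium -3.16, -0.72 and -3.21. PRCre lesions read -1.43, -2.35 and -2.79, and ERBOE lesions -1.64, 1.15 and -1.81. Within ERBOE, the uterus arrays were below all eutopic and all lesion arrays, where 11.8% and 20.1% of features did not overlap. In PRCre 1 uterus array lay inside the lesion range and the others below it. PRCre uterus replicate 1, the lowest, was not well above background.

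Lesions read 2.38 ± 0.71 above uterus for Ptger2 averaged over genotypes (SE, 95% interval 0.85 to 3.899, unadjusted p = 0.00475, limma adjusted p = 0.108). This was the smallest adjusted p of the 10 genes in any comparison. Ptger2 and Ptgs2 were the 2 genes with an unadjusted p under 0.05, against 16.2% of features. In ERBOE the difference was 3.32 ± 1.01 (95% interval 1.17 to 5.48, adjusted p = 0.146). Slides 1, 2 and 3 gave 5.35, 2.44 and 2.18. With normexp the 2 differences were 1.23 and 2.12, and without PRCre uterus replicate 1 the average was 1.91.

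The other Ptger2 differences were smaller. Lesions read 1.31 ± 0.71 above eutopic endometrium averaged over genotypes (adjusted p = 0.486), and 0.83 without ERBOE lesion replicate 2, the brightest Ptger2 array. Eutopic endometrium read 1.07 ± 0.71 above uterus averaged over genotypes (limma adjusted p = 0.984) and 1.73 ± 1.01 above it in ERBOE (adjusted p = 1). With normexp these were 0.31 and 0.85. Without ERBOE eutopic replicate 2 they were 0.66 and 0.91. The eutopic minus uterus difference was 1.33 ± 1.43 larger in ERBOE (adjusted p = 0.985), with 0.48 to 2.26 when 1 array was left out.

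Ptger3 encodes EP3, which lowers cyclic AMP in most cells. Its brightest probe had group means from -2.05 ± 0.43 (SD, n = 3) in ERBOE uterus to -1.16 ± 0.34 in ERBOE lesions. PRCre eutopic endometrium, at -0.24, -2.36 and -1.19, covered nearly the whole range of the gene. Eutopic endometrium differed by -0.61 ± 0.49 between ERBOE and PRCre (SE, limma adjusted p = 1) and by 0.42 ± 0.49 from uterus within PRCre (adjusted p = 0.919). Both rested on single arrays: leaving out PRCre eutopic replicate 1 gave -0.10 for each, so the second changed sign.

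The second Ptger3 probe, A_55_P1975481, correlated with the first at r = 0.72. It read -3.27, -2.83 and -3.52 in ERBOE uterus and -1.56, -0.96 and -2.16 in ERBOE lesions, without overlap (20.1% of features). That difference was 1.65 ± 0.40 (SE, limma adjusted p = 0.0668 over single probes, of which 1.18% passed). Over 25 alternatives the adjusted p reached 0.207 and passed in 1, without PRCre eutopic replicate 1 (0.0329). That array is not part of this comparison, so leaving it out kept the difference and changed the estimated spread. Averaged over genotypes the second probe read 0.98 ± 0.28 higher in lesions than in uterus (adjusted p = 0.0962, where 1.99% of probes passed). The brightest probe gave 0.89 ± 0.49 and 0.68 ± 0.35 for the same comparisons. With normexp the second probe gave 0.94 and 0.45.

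Ptger4 encodes EP4, which like EP2 raises cyclic AMP. Its level lay between 1.41 and 3.29, and its 2 probes followed each other at r = 0.92. ERBOE lesions read lowest, at 1.41, 2.46 and 1.97, against 2.69, 2.33 and 2.73 in PRCre lesions, with overlap. The difference was -0.63 ± 0.38 (SE, limma adjusted p = 0.994), or -0.36 without ERBOE lesion replicate 1. The lesion minus uterus difference was lower in ERBOE by a difference of -0.87 ± 0.54 (adjusted p = 0.824). Eutopic endometrium read 0.35 ± 0.38 above uterus in PRCre (adjusted p = 0.909), and between 0.08 and 0.62 when 1 array was left out.

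Ptgfr encodes the receptor of prostaglandin F2alpha, which drives contraction of the myometrium. PRCre uterus read -3.34, -4.19 and -2.38 and ERBOE uterus -4.11, -4.25 and -5.13, the last not well above background. PRCre lesions read -3.91, -4.42 and -4.14 and ERBOE lesions -3.73, -2.55 and -3.88. PRCre eutopic endometrium read -2.85, -3.62 and -4.33, the last not well above background, and ERBOE eutopic endometrium -3.83, -3.59 and -3.28. ERBOE was thus on the lower side in uterus, where 1 PRCre array overlapped it, and on the upper side in lesions, where the genotypes did not overlap, as was so for 11.5% of features.

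The Ptgfr genotype difference was -1.19 ± 0.49 in uterus (SE, limma unadjusted p = 0.0274, adjusted p = 0.442, with 9.92% of features under 0.05) and 0.77 ± 0.49 in lesions (adjusted p = 0.994). The test of the change itself, the genotype effect in lesions minus that in uterus, gave 1.96 ± 0.69 (95% interval 0.49 to 3.43, unadjusted p = 0.0123, adjusted p = 0.605, with 6.78% of features under 0.05). Normexp gave -0.68, 0.33 and 1.01 for these 3 values. The uterus difference was -0.73 without PRCre uterus replicate 3, and the lesion difference 0.35 without ERBOE lesion replicate 2. Slides 1, 2 and 3 gave -2.75, -0.06 and -0.76 in uterus. On the uterus arrays summed mast cell markers ran from 0.36 to 0.95 in ERBOE and from 1.77 to 2.47 in PRCre, and summed epithelial markers from 7.96 to 8.92 and from 6.92 to 7.53. Summed neutrophil markers ran from 6.31 to 6.49 in ERBOE and from 6.54 to 6.87 in PRCre. None of these 3 summed ranges overlapped between the genotypes, while those of the other marker lists did. Among single features 15.1% did not overlap. The part of these 3 marker shifts in the uterus differences of Ptgfr and Hpgd was not tested.

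The remaining Ptgfr differences were no larger than 1.22. Eutopic endometrium read 0.93 ± 0.49 above uterus in ERBOE (limma adjusted p = 1), or 0.16 with normexp, and this eutopic minus uterus difference was 1.22 ± 0.69 larger in ERBOE than in PRCre (adjusted p = 0.978). PRCre lesions differed by -0.56 ± 0.49 from eutopic endometrium (adjusted p = 1) and by -0.85 ± 0.49 from uterus (adjusted p = 0.527). Leaving out 1 array moved these between -0.92 and -0.18 and between -1.30 and -0.39.

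**Figure D4:**
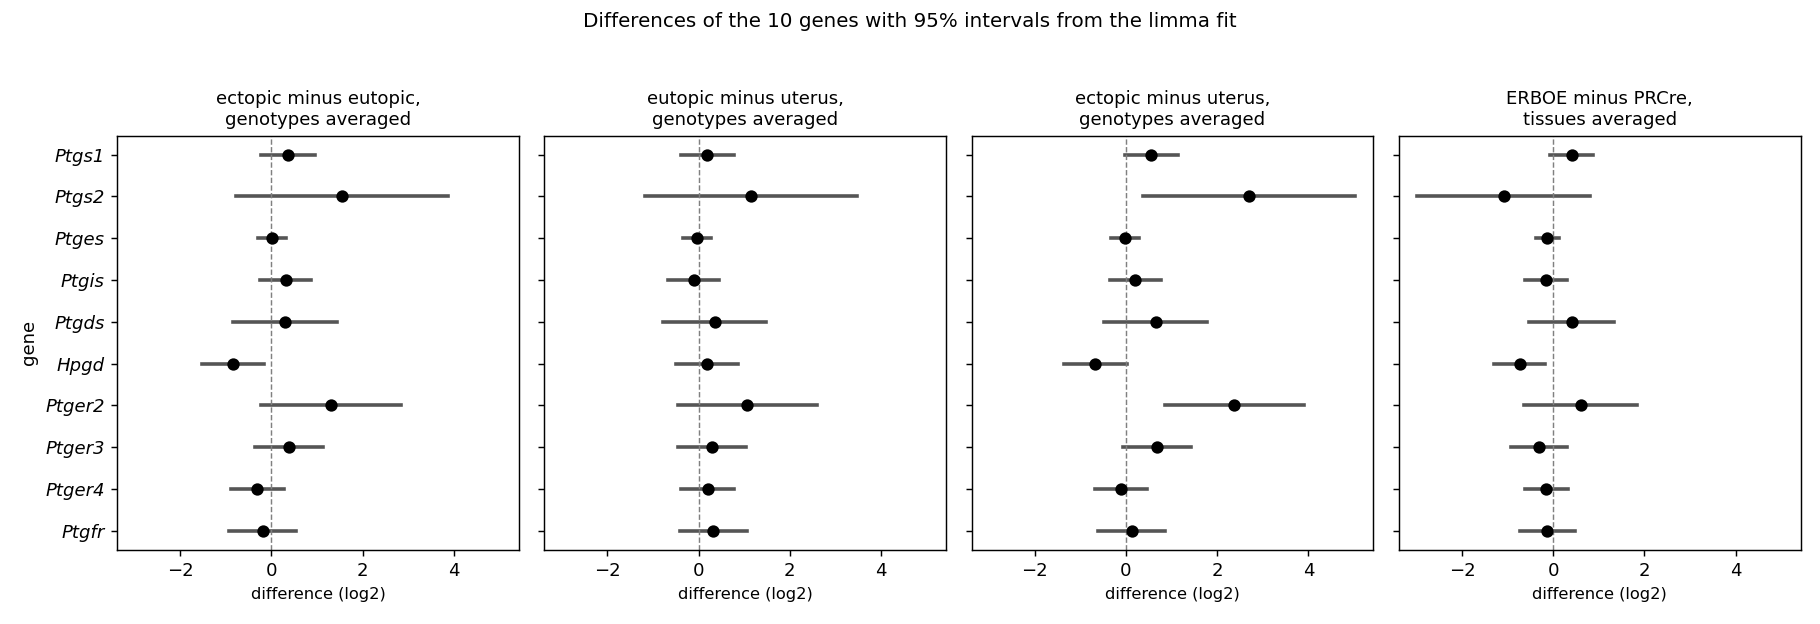
Difference of each of the 10 genes (horizontal axes, log2) with its 95% interval from the limma fit, for the 3 tissue comparisons averaged over genotypes and for ERBOE minus PRCre averaged over tissues. Intervals of Ptgs2 and Ptger2 in lesions minus uterus start at 0.37 and 0.85, and those of Hpgd in lesions minus eutopic endometrium and in the genotype comparison end at -0.16 and -0.18, although no adjusted p is under 0.05.

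Set side by side, more of the 10 genes read higher than lower in each tissue comparison within ERBOE and within PRCre. These counts were not tested. In ERBOE lesions against ERBOE uterus 8 of 10 read higher, with a median difference of 0.76, against -0.06 over all features. Of these, Ptgs2, Ptger2, Ptger3 and Ptgfr did not overlap between the groups (20.1% of features) and Ptgs2, Ptger2 and Ptgfr had an unadjusted p under 0.05 (11.8% of features). Against ERBOE eutopic endometrium 7 of 10 read higher, with a median of 0.51 against -0.12, and Ptgs2 alone did not overlap (20.2% of features). In PRCre lesions 6 of 10 read higher against uterus and 6 of 10 against eutopic endometrium, with medians of 0.34 and 0.05. In ERBOE eutopic endometrium against ERBOE uterus 9 of 10 read higher, with a median of 0.19. There Ptgs2, Ptger2 and Ptgfr did not overlap between the groups (11.8% of features). In PRCre eutopic endometrium against PRCre uterus 7 of 10 read higher, with a median of 0.27. The lesion minus uterus and eutopic minus uterus comparisons share the uterus arrays. The difference in median between the genotypes was not tested as such, and 1 of the 3 tests of genotype effect had a gene of the 10 with an unadjusted p under 0.05.

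Genes around the 10 in the same pathway were read from 6 further lists with 52 genes, all of which passed the filter. In lesions minus uterus averaged over genotypes 3 of 52 rose and 0 fell (2.08% of features passed): Ptgir, Mgll and Il1b. In lesions minus eutopic endometrium averaged over genotypes 1 rose, Il1b, where 1.27% of features passed. In lesions minus uterus within ERBOE 2 rose, Il1b and Prxl2b, where 1.23% of features passed. Between the genotypes 0 passed in any tissue or averaged, by limma, with 7, 3, 4 and 5 of the 52 at an unadjusted p under 0.05 in uterus, eutopic endometrium, lesions and the average. Over all features the shares under 0.05 were 9.92%, 2.97%, 4.43% and 8.95%.

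The list of other prostanoid receptors held 5 receptors and Ptgfrn, a regulator of the prostaglandin F receptor, and 1 of these 6 rose. Ptgir, the prostacyclin receptor, read -3.04, -2.58 and -1.99 in PRCre uterus and -2.36, -2.04 and -3.45 in ERBOE uterus. It read -0.71, 0.03 and -1.55 in PRCre lesions and -0.36, -1.24 and -0.49 in ERBOE lesions. All 6 lesion arrays were above all 6 uterus arrays, and 1.64% of features did not overlap in that comparison. The difference was 1.86 ± 0.33 (SE, limma adjusted p = 0.00856), and its adjusted p stayed between 0.00308 and 0.03 over 26 alternatives. Against eutopic endometrium the difference was 1.34 ± 0.33 (adjusted p = 0.0643).

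The list on fatty acid release held 8 genes, among them Anxa1, known as an inhibitor of phospholipase A2, and 1 rose. Mgll, monoacylglycerol lipase, which frees arachidonic acid from 2-arachidonoylglycerol, read 1.30 ± 0.27 higher in lesions than in uterus (SE, limma adjusted p = 0.0212). Its lesion arrays read 2.89, 2.66 and 1.56 in PRCre and 2.55, 3.03 and 2.86 in ERBOE, against 0.54 to 1.65 on the 6 uterus arrays. A single PRCre lesion array overlapped the uterus. The call was lost, with adjusted p between 0.0507 and 0.0644, when ERBOE uterus replicate 2 or 3, PRCre lesion replicate 1 or 2 or ERBOE lesion replicate 3 was left out. Of 11 further terminal synthases 0 passed averaged over genotypes, with 2 at an unadjusted p under 0.05, and Prxl2b, a prostamide and prostaglandin F synthase, rose by 1.29 ± 0.29 in ERBOE lesions against ERBOE uterus (adjusted p = 0.0425). It read 3.03, 2.81 and 2.85 in those lesions and between 1.49 and 1.74 in that uterus, without overlap (20.1% of features). That call was lost in 16 of 26 alternatives, with an adjusted p of up to 0.185. In the lists of 6 breakdown and transport genes and 9 lipoxygenase and leukotriene genes 0 passed averaged over genotypes, with 1 and 4 at an unadjusted p under 0.05 in lesions against uterus. In that comparison 16.2% of all features were under 0.05.

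Of 12 cytokines and factors known to act on Ptgs2 1 rose and 11 read higher in lesions than in uterus averaged over genotypes, with a list median of 0.61 against -0.08 over all features. Il1b, the gene of interleukin-1 beta, a known inducer of COX-2, was the one that rose. It read -4.12, -2.72 and -3.24 in PRCre uterus and -5.30, -6.22 and -4.58 in ERBOE uterus. In PRCre lesions it read 0.60, -0.28 and -1.63, and in ERBOE lesions 3.10, 0.55 and 0.68. Eutopic endometrium read -6.12, -0.82 and -6.39 in PRCre and -1.42, -5.07 and -4.002 in ERBOE. All lesion arrays were above all uterus arrays, where 1.64% of features did not overlap. Of the eutopic arrays, 1 PRCre and 1 ERBOE array reached into the PRCre lesion range.

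The Il1b difference was 4.87 ± 0.91 against uterus (SE, limma adjusted p = 0.0129, at most 0.0416 over 25 alternatives) and 4.48 ± 0.91 against eutopic endometrium (adjusted p = 0.0267). In ERBOE no uterus array was well above background. By the same bound on means, Il1b was 73.4-fold higher in lesions (measured difference 6.81 ± 1.29, limma adjusted p = 0.0193). Without ERBOE lesion replicate 1 that bound was 41.3-fold. The same array held the highest summed level of neutrophil markers, 8.11 against 6.12 to 6.97 on the other 17 arrays, and their part in the Il1b difference was not tested. With normexp the differences against uterus, against eutopic endometrium and within ERBOE were 3.07, 2.93 and 4.33, all with an adjusted p at or under 0.00557. The last of these lies below the 73.4-fold bound. The eutopic call was lost with the slide as a block (adjusted p = 0.0705) and without PRCre lesion replicate 1 or 2, PRCre eutopic replicate 1 or 3, ERBOE lesion replicate 1 or ERBOE eutopic replicate 2 or 3 (0.0673 to 0.0826). The ERBOE call was lost without ERBOE uterus replicate 1 or 2 or ERBOE lesion replicate 1 (0.0732 to 0.105).

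**Figure D5:**
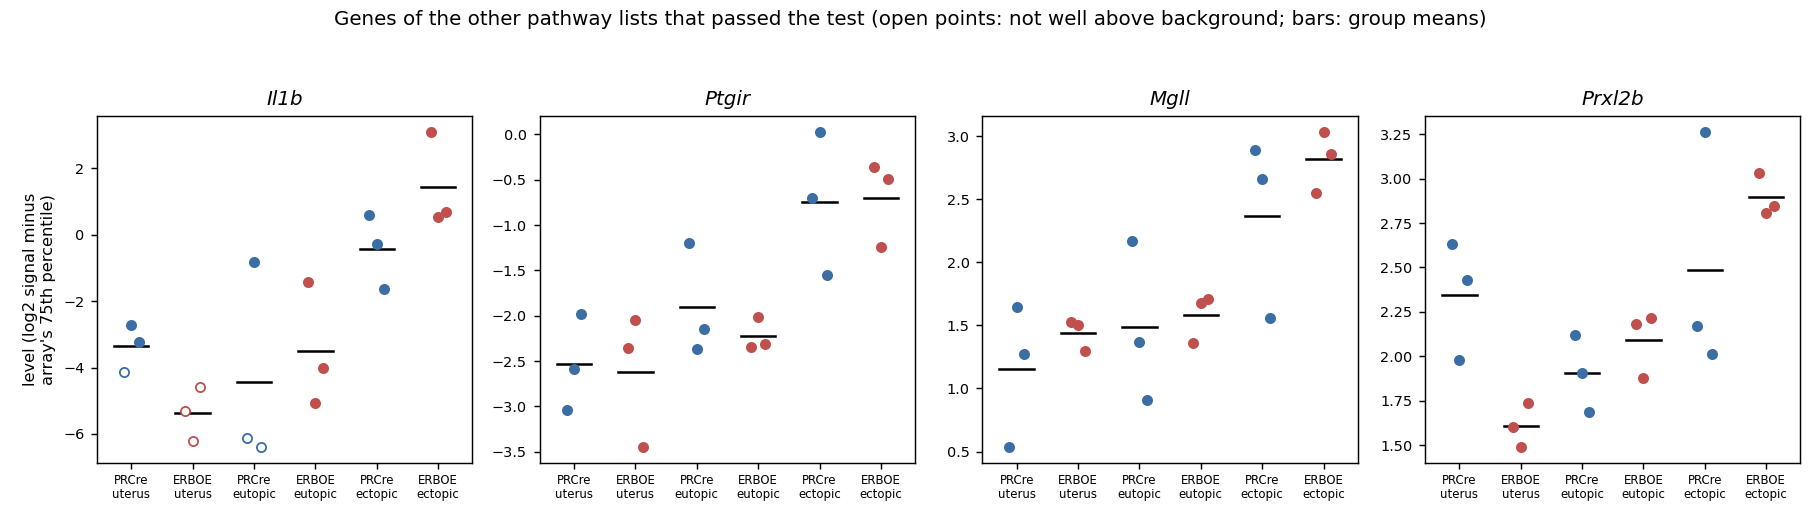
Level of Il1b, Ptgir, Mgll and Prxl2b (vertical axes, log2 signal minus the array's 75th percentile) on every array, by group (horizontal axes), with PRCre in blue, ERBOE in red, open points not well above background and bars at group means. Il1b lesion arrays lie between -1.63 and 3.10 and uterus arrays between -6.22 and -2.72.

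Genes whose levels ran most like those of Ptger2, Ptgfr and Ptgs2 over the 18 arrays were sought among 17194 named genes. Ptger2 ran most like Apbb2 (r = 0.91), Fam126a (0.90) and Mtr (0.89). Ptgfr ran most like Zfp566 (0.85), Rsph9 (0.80) and Kif3a (0.80). Ptgs2 ran most like Plin5 (0.83), Dmkn (0.83) and Cebpd (0.79). All points share the group structure and the brightness of their array. After group means were removed the values were 0.88, 0.92 and 0.89 for Ptger2. They were 0.78, 0.76 and 0.74 for Ptgfr and 0.75, 0.75 and 0.70 for Ptgs2. Each set holds the highest of 17194 values of r, and how high such values would run by chance was not tested.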

How the data were processed

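Each of the 18 samples was hybridised to a 1-colour Agilent array from 25 ng of total RNA and 600 ng of labelled cRNA, per the labels' protocols. The deposited scanner files hold spot intensity that Agilent Feature Extraction 11.0.1.1 (protocol GE1_1100_Jul11, grid build mm9) had background-subtracted, per the file headers, with no scaling between arrays. A further deposited table gives log2 values that were centred per probe. Their correlation with centred scanner values was 0.993 to 0.997 per array and column medians were -0.15 to 0.36. The labels do not say how the authors made it.

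Controls and outlier spots were left out, log2 intensity was scaled to each array's 75th percentile, and spots of a probe were averaged. RefSeq names (GRCm38.p6) were found for 32994 of 56605 probes. The brightest probe stood for a symbol, and features well above background on at least 3 of 18 arrays were kept. Limma 3.58.1 (R 4.3.3) fitted 6 group means (residual df 12, prior 2.48), with 2-sided tests and Benjamini-Hochberg adjustment over 33455 features. The number of arrays limits the precision. The fit was tested on simulated data.

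A difference is printed for genes that pass and, with fewer than 2, for the 2 smallest p among the 10. Other pathway genes are named where they pass averaged over genotypes, and the 3 most similar genes for the 4 members with the smallest p, of which 1 set is not reported here; Prxl2b, the second probes and the counts by list were added after values were seen. A bound sets the bright group's mean against, per array, the higher of the dim probe and the lowest signal well above background. It leaves out the spread between arrays, and a higher limit for the dim arrays would give a smaller fold. The members and lists were chosen with earlier results of these data known.

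Replicate numbers occur in every group. Same-numbered arrays deviated together at correlations of -0.34 to 0.44, and every pair was over 0.1 in 2 of 15 pairs of groups (PRCre with ERBOE uterus, and PRCre eutopic with PRCre lesions), although their animals differ.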

Additional observations from a re-analysis of the deposited data

How the results depend on the processing

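The count of the 10 genes that passed was 0 in each of 16 comparisons under all 26 alternatives: normexp, quantile normalization, no filter, a filter on all 18 arrays (which left out Ptgs2, Ptger2 and Ptgfr), the slide as a block, the replicate block, the deposited table, the mean of a gene's probes and 18 fits without 1 array. Where a group then had 2 arrays, the spread was pooled over groups. The Ptger3 difference between eutopic endometrium and uterus in PRCre reversed, with -0.10 to 0.97 without 1 array. With the replicate block, which changed no call of the 10, the lesion minus uterus count over all features in PRCre was 15 against 3, and Prxl2b was lost (adjusted p = 0.0667). That count was 138 with normexp, 41 with quantile normalization, 9 with the filter on all arrays and 1 to 64 without 1 array. Lesion minus eutopic counts with the filter on all arrays were 0, 122 and 241 against 1, 206 and 424 (PRCre, ERBOE, average), and the first was 7 with normexp. Without 1 array they were 1 to 51, 67 to 260 and 217 to 703. Lesion minus uterus counts without 1 array were 122 to 539 in ERBOE (411) and 353 to 1275 on average (695). The average genotype count of 4 was 1 to 16, and the genotype counts of 0 were at most 16 in uterus, 1 in eutopic endometrium and 5 in lesions. Eutopic minus uterus counts of 0 were at most 8 in PRCre and 2 on average, and those of genotype effect at most 2. Quantile normalization moved the median of all features in uterus between genotypes from -0.12 to -0.00. For Ptgs2, well above background on 13 of 18 arrays, signal near background limits the size of every difference.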
